A study of Mus musculus with 2 samples.

Results

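The genes described here are the tissue inhibitors of metalloproteinases (Timp1, Timp2, Timp3 and Timp4) and the genes of plasminogen activation: the activators Plau and Plat, the receptor Plaur and the inhibitors Serpine2 and Serpinb2. They were chosen by name (TIMP1, TIMP2, TIMP3, TIMP4, PLAU, PLAT, PLAUR, SERPINE2 and SERPINB2 in the table's spelling), and all 9 had a row among the 25430 gene names of the deposited table. The 2 libraries came from primary mouse embryonic fibroblasts, connective tissue cells grown from E13.5 embryos of matings between heterozygous Sptbn1+/- mice. One library was labelled wild type (Sptbn1+/+ is not written out in the labels) and the other Sptbn1 knockout (Sptbn1-/-). Sptbn1 encodes beta-2 spectrin, a protein of the membrane skeleton also known as an adaptor for Smad proteins in TGF-β signalling. The cells of both genotypes were replated and grown in the same serum-containing medium. Whether a library came from 1 embryo or from several, and whether the embryos were littermates, could not be learned from the labels.

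Matrix metalloproteinases cut collagens and other matrix proteins, and TIMPs block them by binding in the active site. Plasminogen activators cut plasminogen into plasmin, a protease that digests fibrin and can activate some of the secreted metalloproteinases. Serpins stop the activators by forming a covalent complex with them, and the receptor holds Plau at the cell surface. Fibroblasts make members of both systems, and TGF-β is known to act on several of these genes.

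With 1 library per genotype no difference has a spread between cultures, so no test was run and every comparison is between these 2 libraries. Sptbn1 itself stood at 69.6 FPKM in wild type and 36.6 FPKM in knockout, which is 52.5% of the wild-type value and in the direction of the labels. That value alone does not show loss of the gene, and the source of the remaining transcript was not tested. FPKM count fragments per kilobase of a transcript relative to all mapped fragments, so levels can be set beside each other between genes. The depth of the libraries is unknown. In rows with a mean under 0.3 FPKM and above 0 in both libraries, the commonest ratio of knockout to wild-type FPKM was 1.61. If such rows hold 1 fragment in each library, 1 fragment was worth 1.61 times as much FPKM in knockout. The 12 fibroblast markers were all measured (a mean of 1 FPKM or more over both libraries) and summed to 3625 FPKM in wild type and 3496 FPKM in knockout, with Dcn at -0.33, Pdgfra at -0.24, Col3a1 at -0.10 and Lum at 0.10 as the largest log2 ratios. All ratios are log2((knockout FPKM + 1)/(wild-type FPKM + 1)) unless stated, and negative values mean lower in knockout. The zero point depends on the scaling: on a common FPKM sum the median of all measured genes moved from -0.05 to 0.34, so ratios near 0 carry no direction of their own. That sum is carried by 12 rows above 1% of it in either library. Without these rows (added after the data were seen) the median was 0.01, and all 9 genes described here kept their deposited sign. For Timp4, listed at 0 in knockout, no rescaling of that library could turn the sign.

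The TIMP and plasminogen activation genes covered a wide range of levels, from Timp1 and Timp3 at the top down to Timp4 below 1 FPKM. Of the 9 genes, 7 were measured. Among these 7, none differed by 1.5-fold or more between the libraries, where 2.27% of all 11070 measured genes did. On a smaller limit of 1.2-fold, added after the values were seen, 1 gene was higher (Timp3) and 2 lower (Serpine2 and Plau) in knockout, where 5.54% of measured genes were higher and 10.6% lower. On a common FPKM sum Timp3 was at least 1.5-fold higher, and at 1.2-fold 4 of the 7 were higher and 0 lower. The median of all measured genes, 0.34 on that scale, was itself more than 1.2-fold higher, so the 1.2-fold counts do not set the members apart. The share of all measured genes past either fold was not counted on that scale. The log2 ratio was below 0 for 5 of the 7 and above 0 for 2, with a median of -0.12 that turned to 0.30 on a common FPKM sum. Of all measured genes 63.1% were below 0, with a median of -0.05 (0.34 on a common FPKM sum). Of the unmeasured genes, Serpinb2 was lower in knockout and Timp4 was listed at 0 there.

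**Figure D1:**
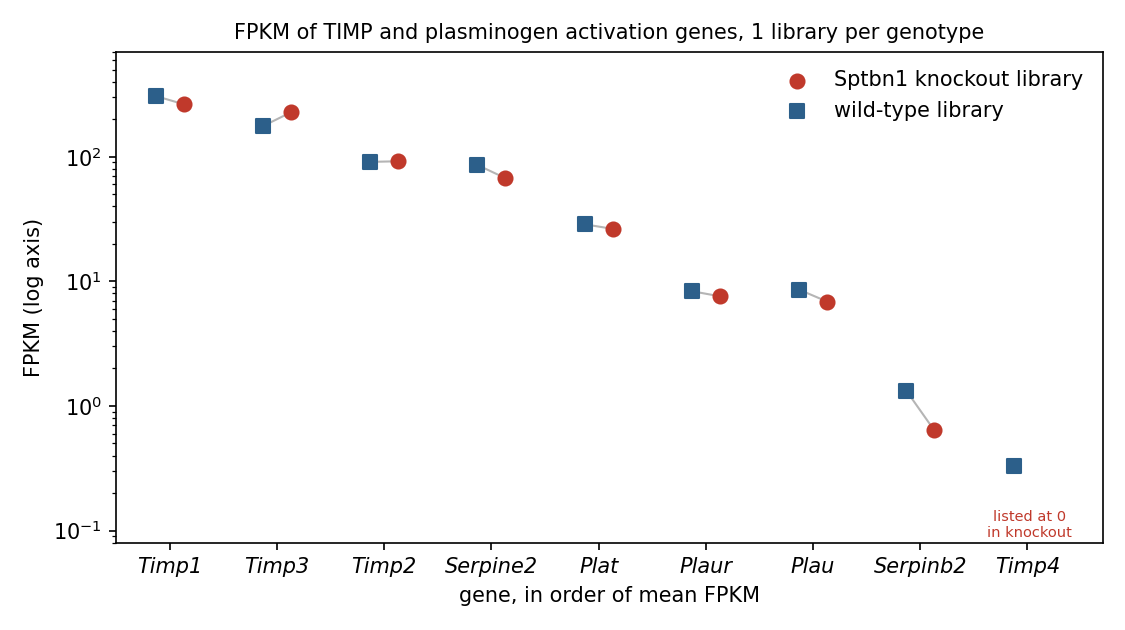
FPKM on a log axis for the 9 genes, with squares for the wild-type library and circles for the knockout library. Timp1, Timp3 and Timp2 lie highest, Timp3 is higher in knockout, and Timp4 has no knockout point because it was listed at 0 there.

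Timp1, a secreted inhibitor that blocks most matrix metalloproteinases, was the most abundant of the 9 in both libraries. It stood at 307 FPKM in wild type and 264 FPKM in knockout, 86.0% of the wild-type value and a log2 ratio of -0.22 (0.25 on a common FPKM sum). The difference of knockout minus wild type was -42.9 FPKM, and Timp1 ranked 48th there and 51st in knockout among measured genes. Of all measured genes, 22.7% had a log2 ratio larger in size, in either direction.

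Timp3 is the member of the family that stays bound to the extracellular matrix, and it also blocks the shedding enzyme Adam17 and several Adamts proteases. It stood at 176 FPKM in wild type and 228 FPKM in knockout, 129% of the wild-type value and a log2 ratio of 0.37 (0.83 on a common FPKM sum). Timp3 had the highest ratio of the 9 genes: 97.1% of measured genes had a lower ratio, and its rank was 99th in wild type and 61st in knockout. Of all measured genes, 7.66% had a log2 ratio larger in size.

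Timp2, which blocks metalloproteinases and also joins Mmp14 at the cell surface in the activation of pro-Mmp2, was nearly level. It stood at 91.0 FPKM in wild type and 92.0 FPKM in knockout, with a log2 ratio of 0.02. Its rank was 228th in wild type and 198th in knockout. Timp4, whose known expression is restricted to fewer tissues than that of the other TIMPs, was listed at 0.327 FPKM in wild type and at 0 in knockout. A value of 0 in such a table can be a failed estimate, so no fold is given for Timp4.

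On the deposited scale the total of the 4 TIMP transcripts was nearly equal in the libraries, at 575 FPKM in wild type and 584 FPKM in knockout, 102% of the wild-type sum. Its make-up differed. Timp1 was 53.4% of the sum in wild type and 45.2% in knockout, Timp3 was 30.7% and 39.0%, and Timp2 was 15.8% in both. The differences of knockout minus wild type for Timp1 (-42.9 FPKM) and Timp3 (51.1 FPKM) were of similar size and opposite sign as deposited. On a common FPKM sum both genes were higher in knockout (log2 ratios of 0.25 and 0.83). The median of all measured genes was 0.34 on that scale, so Timp1 lay below it and Timp3 above. Timp1 stood at 1.74 times the Timp3 level in wild type and 1.16 times in knockout. A ratio of this kind is taken within a library and does not depend on how the libraries were scaled to each other.

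**Figure D2:**
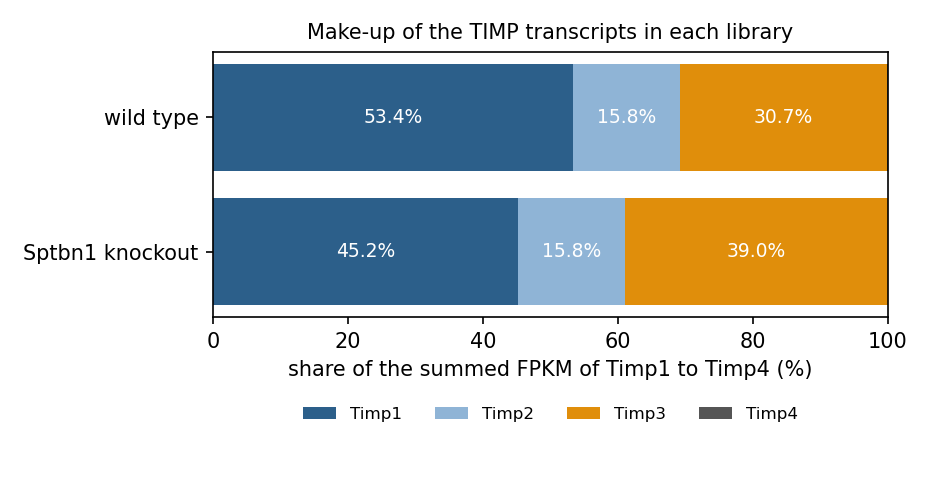
Stacked bars of the share of each TIMP gene in the summed FPKM of Timp1 to Timp4, 1 bar per library, in percent. The Timp1 share is 53.4% in wild type and 45.2% in knockout, the Timp3 share 30.7% and 39.0%, and Timp4 is too small to be seen.

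Timp1, Timp3 and Timp4 each lie inside a synapsin gene, on the opposite strand, in the GENCODE vM21 annotation: Timp1 in Syn1 on chromosome X, Timp3 in Syn3 on chromosome 10 and Timp4 in Syn2 on chromosome 6. Synapsins are vesicle proteins of neurons. Syn1 stood at 1.11 FPKM in wild type and 0.667 FPKM in knockout, Syn3 at 0.254 and 0.243 FPKM, and Syn2 at 0.118 and 0.223 FPKM. None of the 3 was measured, and each was far below Timp1 or Timp3. For Timp4 the host gene lay at a similar low level, and annotated exons of Timp4 and Syn2 overlap. Whether the counting used strand is not stated in the labels, so reads of Timp4 and Syn2 cannot be told apart where they overlap. Exons of Timp3 and Syn3 overlap too.

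The promoters of Timp1 and Timp3 are shown because these genes lay on opposite sides of the comparison on the deposited scale, though not on a common FPKM sum. Each is the 250 bases before the start of the RefSeq gene on GRCm38.p6, 5′ to 3′ on the strand of the gene, at chrX:20869916-20870165 (plus strand) and chr10:86300162-86300411 (plus strand). Capitals mark matches on either strand to 5 motifs that were searched: AP-1 (TGANTCA), SP1 (GGGCGG), the TATA box (TATAAA), Smad (CAGAC) and the cyclic AMP response element (TGACGTCA).
Timp1: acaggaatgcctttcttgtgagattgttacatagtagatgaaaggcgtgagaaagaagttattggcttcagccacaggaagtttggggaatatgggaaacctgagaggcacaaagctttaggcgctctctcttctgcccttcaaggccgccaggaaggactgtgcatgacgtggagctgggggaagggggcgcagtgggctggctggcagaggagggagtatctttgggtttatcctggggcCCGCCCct
Timp3: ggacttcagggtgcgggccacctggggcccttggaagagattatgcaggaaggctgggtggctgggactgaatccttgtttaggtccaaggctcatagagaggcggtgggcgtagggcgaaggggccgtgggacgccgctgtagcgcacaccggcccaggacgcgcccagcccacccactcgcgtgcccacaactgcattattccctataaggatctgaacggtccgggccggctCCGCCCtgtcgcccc
Each of these windows held 1 SP1 motif near its end and no match to the other 4 motifs. Timp2 also held 1 SP1 motif, and Timp4 held 1 Smad motif only. Of 32536 windows of this length, 33.0% held the SP1 motif, 42.2% the Smad motif, 12.3% the TATA motif, 6.73% the AP-1 motif and 1.56% the cyclic AMP motif. GC content was 54.4% for Timp1, 68.0% for Timp2, 65.6% for Timp3 and 53.6% for Timp4, against a median of 52.4% over all windows. The SP1 motif thus stood in the windows of all 3 measured TIMP genes, and these matches are a description of the letters only.

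The 4 measured genes of plasminogen activation were lower in knockout by modest amounts, and all 4 turned to ratios between 0.12 and 0.34 on a common FPKM sum, at or below the median gene there. Plau, the urokinase-type activator that works at the cell surface, stood at 8.58 FPKM in wild type and 6.89 FPKM in knockout, 80.3% of the wild-type value and a log2 ratio of -0.28. Plat, the tissue-type activator best known for dissolving fibrin clots, stood at 28.7 FPKM in wild type and 26.4 FPKM in knockout, a log2 ratio of -0.12. Plaur, the lipid-anchored surface receptor of Plau, stood at 8.34 FPKM in wild type and 7.59 FPKM in knockout, also -0.12. The log2 ratio of Plau was exceeded in size by 14.2% of measured genes, that of Plat by 49.9% and that of Plaur by 48.5%. Plat and Plaur were therefore near the middle of all measured genes, and Plau somewhat outside it.

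Per length, Plat was the more abundant activator transcript in both libraries. Plau stood at 0.299 times the Plat level in wild type and 0.261 times in knockout. Plau and its receptor were close to each other, with Plau at 1.03 times the Plaur level in wild type and 0.907 times in knockout, so their order differed between the libraries. No spread is available to say whether the libraries differ in this order beyond error.

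Serpine2 encodes protease nexin-1, a secreted serpin that inhibits thrombin and both plasminogen activators. It stood at 85.9 FPKM in wild type and 67.4 FPKM in knockout, 78.4% of the wild-type value and a log2 ratio of -0.35. Among the 7 measured genes this was the lowest ratio: 5.46% of all measured genes had a lower one. Its rank was 236th in wild type and 311th in knockout.

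Serpinb2 encodes a serpin that inhibits Plau and is found largely inside cells. It stood at 1.33 FPKM in wild type and 0.638 FPKM in knockout. Its mean of 0.982 FPKM was just under the measured limit, so it entered no count of measured genes. The knockout value was 48.2% of the wild-type value, and the log2 ratio was -0.51 with the pseudocount and -1.05 without it. How many fragments stand behind a level this low is unknown.

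Serpine2 and Serpinb2 both lie on chromosome 1 and stood at the opposite ends of the range of levels among the plasminogen genes, and their promoters differ as much in base composition. The 250 bases before each start are shown with the same capitals, from chr1:79858666-79858915 (minus strand) for Serpine2 and chr1:107511173-107511422 (plus strand) for the first of the RefSeq starts of Serpinb2.
Serpine2: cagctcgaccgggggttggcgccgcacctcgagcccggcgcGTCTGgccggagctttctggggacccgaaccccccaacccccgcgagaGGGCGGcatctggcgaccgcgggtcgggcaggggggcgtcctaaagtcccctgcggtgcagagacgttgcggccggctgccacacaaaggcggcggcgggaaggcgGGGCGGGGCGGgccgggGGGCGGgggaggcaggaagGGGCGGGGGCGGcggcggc
Serpinb2: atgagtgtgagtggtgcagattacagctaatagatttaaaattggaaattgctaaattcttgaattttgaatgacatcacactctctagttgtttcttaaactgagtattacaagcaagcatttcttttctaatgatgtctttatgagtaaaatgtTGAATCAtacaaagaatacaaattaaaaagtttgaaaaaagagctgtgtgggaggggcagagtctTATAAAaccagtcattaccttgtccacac
The Serpine2 window had a GC content of 78.8%, above that of 98.3% of all windows, with 34 CpG dinucleotides. It held 6 SP1 motifs and 1 Smad motif. Only the SP1 motifs beginning 55 and 50 bases before the start overlap each other. The Serpinb2 window had a GC content of 32.4%, below all but 2.59% of windows, and no CpG. It held 1 TATA motif beginning 29 bases before the start and 1 AP-1 motif beginning 94 bases before it. The Plaur window, with a GC content of 59.6%, held 1 AP-1 motif and 3 SP1 motifs. Promoters of Plau and Plat are not shown.

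The activators were set against the inhibitor Serpine2 within each library. Plau stood at 0.0999 times the Serpine2 level in wild type and 0.102 times in knockout, a log2 difference of 0.03, so Plau and Serpine2 differed between the libraries to nearly the same degree. Plat stood at 0.334 times Serpine2 in wild type and 0.392 times in knockout, a log2 difference of 0.23. In both libraries the Serpine2 transcript exceeded each activator transcript per length.

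The TIMPs were set against their target proteases in the same way. Timp2 and Mmp14 kept nearly the same ratio, with Timp2 at 0.808 times Mmp14 in wild type and 0.801 times in knockout. Timp2 stood at 1.26 times Mmp2, the gelatinase whose proenzyme it helps to activate, in wild type and 1.66 times in knockout. Timp3 stood at 13.6 times Adam17 in wild type and 20.1 times in knockout, a log2 difference of 0.56. The widest differences involved the stromelysin gene Mmp3 and the collagenase gene Mmp13: Timp1 stood at 2.87 times Mmp3 in wild type and 5.11 times in knockout, and at 6.95 times Mmp13 in wild type and 14.6 times in knockout. Mmp3 stood at 107 FPKM in wild type and 51.7 FPKM in knockout, and Mmp13 at 44.2 and 18.1 FPKM, so both protease genes lay further below wild type than Timp1 did.

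**Figure D3:**
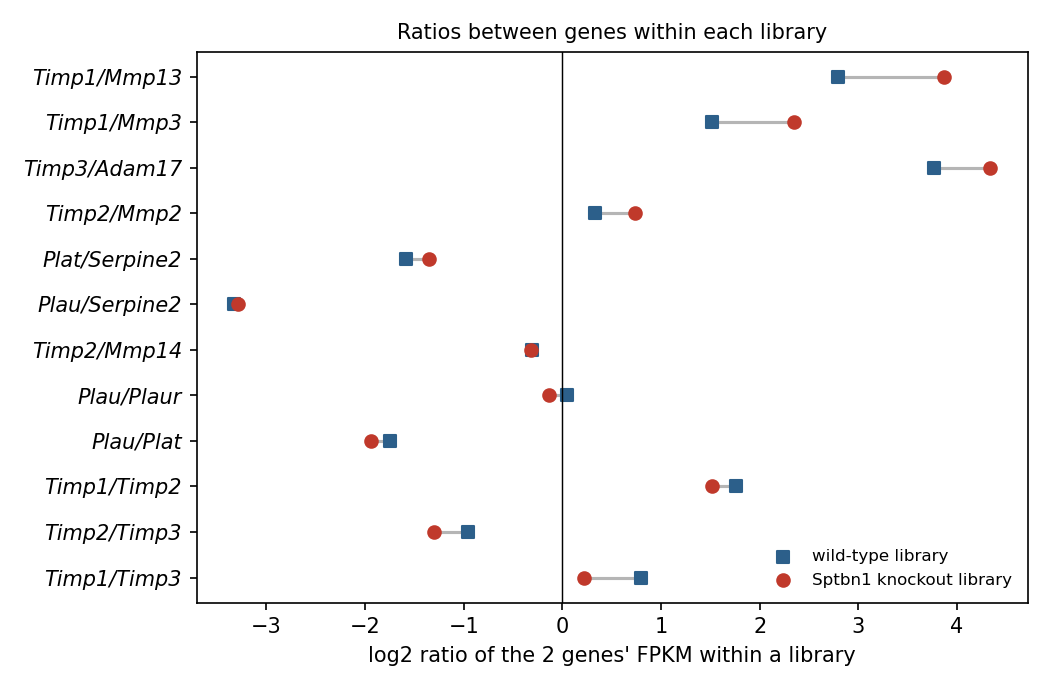
Log2 ratio of the FPKM of 2 genes within each library for the 12 fixed pairs, with squares for wild type and circles for knockout. The Timp1/Mmp13 ratio is 6.95 in wild type and 14.6 in knockout (2.80 and 3.87 on the log2 axis), and the Plau/Serpine2 and Timp2/Mmp14 symbols nearly coincide.

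A fixed list of other genes, from the plasminogen system and from related serpins and proteases, lay close to the median gene. Of the 21 genes on it, 12 were measured. Their median was -0.08 (0.35 on a common FPKM sum), and none reached 1.2-fold. As deposited 10 of them lay below 0 and 2 above, where 63.1% of all measured genes lay below 0. On a common FPKM sum 0 of the 12 lay below 0. The largest differences were those of Plgrkt, a plasminogen receptor of the cell surface (14.7 FPKM in wild type and 12.4 FPKM in knockout, -0.22), Serpinb8 (-0.20), S100a10, which forms a plasminogen-binding complex with annexin A2 (-0.13), and the protease gene Prss23 (-0.11). Plg, which encodes plasminogen itself and is made mainly in the liver, was listed at 0 in both libraries. Serpinf2, the gene of the circulating plasmin inhibitor, Serpina5 and the coagulation factor gene F12 were also listed at 0 in both. The transcripts of the activators and of their inhibitors were thus present without a transcript listed for their substrate.

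Genes of TIMP partners, other metalloproteinase inhibitors and target proteases were mostly lower as deposited (median -0.17) and mostly above 0 on a common FPKM sum (median 0.25, still under the median gene). Of 20 on the list 17 were measured, 14 of them below 0 and 3 above, and none reached 1.5-fold. Of all measured genes 63.1% lay below 0. On a common FPKM sum 1 of the 17 lay below 0. Cd63, a tetraspanin that binds Timp1 at the cell surface, stood on the other side at 61.8 FPKM in wild type and 83.1 FPKM in knockout (0.42). Adamts1, an aggrecan-cutting protease, stood at 25.4 FPKM in wild type and 18.4 FPKM in knockout (-0.45). Mmp2 was at -0.38 and Adamts4 at -0.34. Reck, a membrane-anchored inhibitor of metalloproteinases (chosen after its values were seen), stood at 7.90 FPKM in wild type and 6.74 FPKM in knockout (-0.20).

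The matrix metalloproteinases had wider differences than their inhibitors. Of 12 measured, 3 were at least 2-fold lower in knockout (Mmp13, Mmp3 and Mmp10, at -1.24, -1.04 and -1.01), where 0.379% of measured genes were, and Mmp12 was at -0.58. Of the 3 measured TIMP genes none reached 1.5-fold as deposited, and Timp3 did on a common FPKM sum (0.83). The medians were -0.25 for the metalloproteinases and 0.02 for the TIMP genes, and 0.17 and 0.48 on a common FPKM sum, where 4 of the 12 metalloproteinases and none of the 3 TIMP genes were below 0. Whether the lists differ could not be tested with 1 library per genotype. Mmp2, Mmp14, Mmp16 and the unmeasured Mmp15 stand on both this list and the list of TIMP partners.

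**Figure D4:**
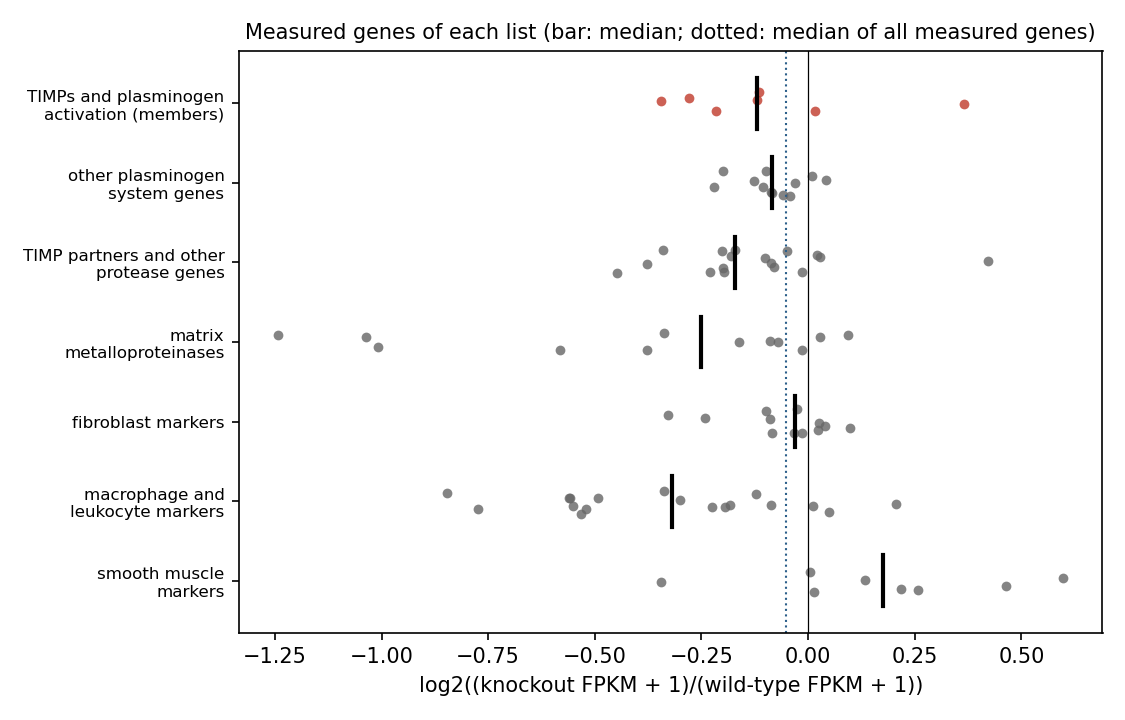
Log2 ratios of the measured genes of each list, 1 point per gene, with a bar at the median and a dotted line at the median of all measured genes (-0.05). The 7 members lie between -0.35 and 0.37, while the metalloproteinases reach -1.24 and the macrophage markers -0.85.

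Lists of markers of other cell types were compared as well, and such markers alone do not show that those cells were present. All 18 macrophage and leukocyte markers were measured and none was at 0. They summed to 1348 FPKM in wild type and 849 FPKM in knockout. The joined entry of Lyz1 and Lyz2 made up most of both sums, at 979 FPKM in wild type and 572 FPKM in knockout. Of the 18 markers 15 lay below 0, where 63.1% of all measured genes did. The 3 above 0 were Aif1 at 0.21, Cx3cr1 at 0.05 and Ptprc at 0.01. Their median was -0.32, and 0.11 on a common FPKM sum, where 8 of the 18 were below 0. C1qb was at -0.85, Lyz2 (a joined entry with Lyz1) at -0.77, C1qc at -0.56 and Fcer1g at -0.56. Macrophages are known to express Plau, Plaur and Serpinb2, and the part of these cells in the lower values of the 3 genes was not tested. Fewer cells of a type and less RNA per cell cannot be told apart in bulk libraries.

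As deposited, smooth muscle markers mostly lay above 0, the direction of Timp3, with a median of 0.18, where 63.1% of all measured genes lay below 0. All 8 were measured, they summed to 683 FPKM in wild type and 782 FPKM in knockout, and 7 were above 0, with Actg2 at 0.60, Cnn1 at 0.46, Des at -0.34 and Myh11 at 0.26. Mesothelial markers were low, summing to 5.56 FPKM in wild type and 7.59 FPKM in knockout, and all 4 measured of 5 were above 0 (Upk1b at 0.56, Lrrn4 at 0.35, Wt1 at 0.16 and Msln at 0.05). Neural and glial markers summed to 28.3 FPKM in wild type and 40.8 FPKM in knockout, and 4 of 8 were measured, with Fabp7 at 0.69, Gfap at 0.58, Sox10 at -0.38 and Tubb3 at 0.09. Among the smooth muscle markers 2 were at least 1.2-fold higher and 1 at least 1.2-fold lower, where 5.54% of measured genes were higher and 10.6% lower. On a common FPKM sum the medians were 0.58 for smooth muscle, 0.58 for mesothelial and 0.74 for neural and glial markers. The macrophage median was above 0 there as well (0.11). Acta2 stood at 487 FPKM in wild type and 567 FPKM in knockout. Whether the fibroblasts themselves or other cells held the smooth muscle transcripts cannot be told from bulk libraries. The part of smooth muscle, mesothelial, neural or glial cells in the higher Timp3 value was not tested.

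Endothelial cells are a known source of Plat, and epithelial cells of Serpinb2. The 10 endothelial markers summed to 11.1 FPKM in knockout, 93.0% of the wild-type sum. Flt1, the only one measured, stood at 10.1 FPKM in wild type and 9.01 FPKM in knockout (-0.14), Kdr at 0.877 and 0.831 FPKM, and Egfl7 at 0.370 and 0.967 FPKM. The defining marker Pecam1 stood at 0.0996 FPKM in wild type and 0.0535 FPKM in knockout, Cdh5 at 0.152 and 0.158 FPKM, and Cldn5 and Tie1 were listed at 0 in both. The 8 epithelial markers summed to 2.12 FPKM in wild type and 1.82 FPKM in knockout. Krt18 (0.01) was the only one measured, Epcam was listed at 0.144 FPKM in wild type and at 0 in knockout, and Esrp1 was listed at 0 in both. The part of either cell type in the values of Plat and Serpinb2 was not tested.

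**Figure D5:**
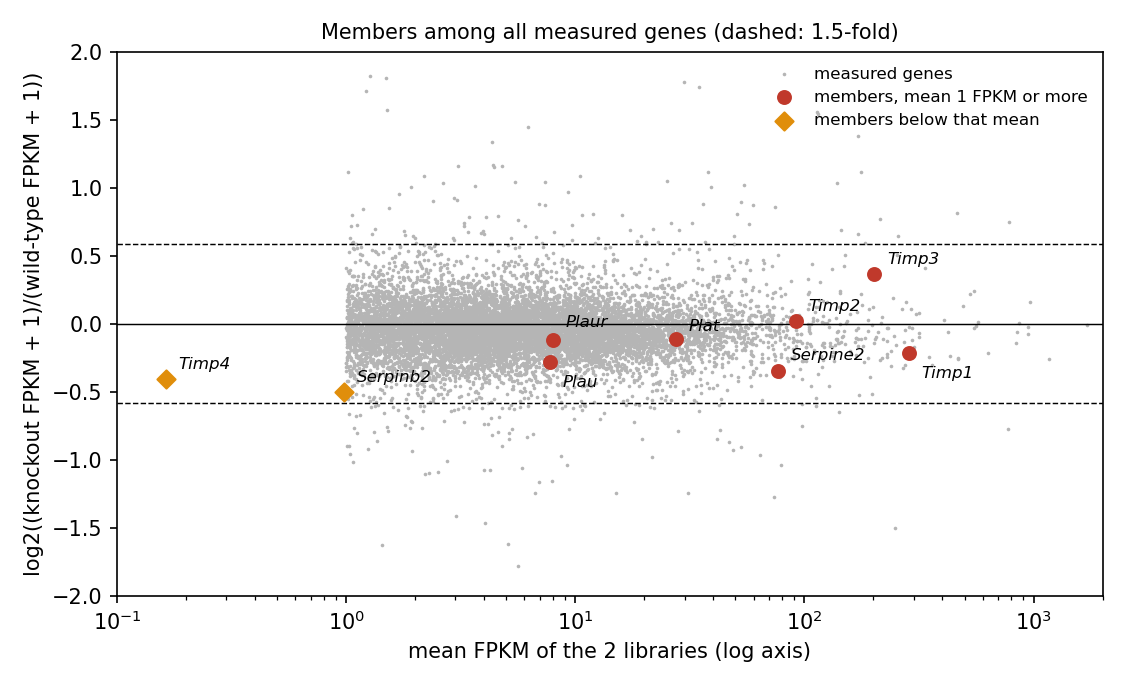
Log2 ratio against mean FPKM (log axis) for all measured genes in grey, the 7 measured members as circles and the 2 unmeasured members as diamonds; dashed lines mark 1.5-fold, and 36 measured genes lie outside the axes. All members lie between the dashed lines, with Timp3 highest at 0.37 and Serpinb2 lowest at -0.51. Serpinb2 lies there only with the pseudocount (-1.05 without it), and Timp4 is drawn from its listed 0 in knockout.

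Of the 9 genes, 8 had a p-value under 0.05 in the authors' deposited table, as had 6 of the 7 measured ones, where 5.60% of measured genes had such a value. For Plau the p-value in the authors' deposited table was 0.000297, for Timp1 0.017176, for Timp2 0.023024, for Serpine2 0.0249868, for Timp3 0.0385043, for Plat 0.046839 and for Plaur 0.663149. For the unmeasured genes the authors' deposited table gave 0.00738397 for Timp4 and 0.0279353 for Serpinb2. These p-values rest on 1 library per genotype and hold no spread between cultures.

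The p-values were not ordered by the size of the difference. Timp2 differed by 1.02 FPKM and had a smaller p-value in the authors' deposited table than Timp3, which differed by 51.1 FPKM. The standard error that a p-value and its FPKM ratio imply together, if the test statistic is taken as normal, was therefore set beside the median of measured genes within 2-fold of the same mean FPKM. For Timp2 it was 0.00710 on the log2 scale, against a median of 0.178 over 414 genes. It was 31.8% of the median for Plat, 35.9% for Plau and 51.4% for Timp1. For Serpine2, Timp3 and Plaur it was 87.4%, 101% and 129% of the median. In these libraries the p-values of Timp2, Plat, Plau and Timp1 thus stood on a narrower implied error than the median of genes at a like level. How they were obtained was not tested. Small p-values at ratios near 0 were not particular to the members. In the authors' deposited table Col1a1 (-0.03), Col1a2 (-0.02), Vim (-0.03) and Tagln (0.004) also had values under 0.05, whereas Fn1 (0.03) and Col5a1 (0.02) did not. These genes were chosen after their values were seen. The authors' deposited table also holds a log2 fold column, not used here, which differed by more than 0.001 from the ratio of the FPKM columns in 29 of 16471 rows above 0 in both libraries, 16 of them with a p-value under 0.05. Of the 8 members above 0 in both libraries, 0 were among these rows. Whether the p-values of the table rest on the same estimates as its FPKM was not tested, and the implied errors carry that limit. Among 8881 measured genes above 0 in both libraries with a log2 FPKM ratio within 0.3, 221 had a p-value under 0.05 in the authors' deposited table.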

How the data were processed

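RNA of 1 wild-type and 1 Sptbn1 knockout library of mouse embryonic fibroblasts was sequenced on a HiSeq 2000. Per the submitters' processing notes and the series' design text, reads were checked with FastQC and Trimmomatic, aligned with TopHat2 2.0.10 to NCBI mouse build 37.2 and quantified with Cufflinks, and the libraries were compared with Cuffdiff2. How the libraries were scaled to each other is not stated there. Per the file headers, the authors deposited FPKM per gene (fragments per kilobase of transcript, scaled to mapped fragments) and a p-value for each gene. The column taken as wild type has a header that also holds a -/- mark and no unit. It was matched by name to that library's title.

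The table has 25587 rows and 25430 names. Where a name was repeated, the row of higher mean FPKM was kept, and no member's name was repeated. Differences were computed as log2((knockout FPKM + 1)/(wild-type FPKM + 1)), a pseudocount of 1 FPKM, which makes changes of low genes look smaller. A gene was called measured from a mean of 1 FPKM upwards. With 1 library per genotype no test was run. Ratios between genes within a library used FPKM without a pseudocount. A named gene is a member, Sptbn1, a gene of 1 of 12 fixed pairs, or 1 of the up to 4 measured genes of each of 14 lists with the largest absolute log2 ratio. Genes named otherwise were chosen after their values were seen. Values of a few genes are not reported here, and the lists are given without them. The members and lists were chosen with earlier results of these data known.

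Names were matched to NCBI RefSeq genes, and overlapping genes were taken from GENCODE vM21. Both are on GRCm38, another build than that of the reads, so their coordinates were not joined to the table. Promoter sequences are RefSeq's on GRCm38.p6. The calculation was tested on simulated data. Alternatives were a pseudocount of 0.1 FPKM or none, 4 scalings of the libraries (1 of them and the 1.2-fold counts added after the data were seen), other filters on mean FPKM, and summing repeated names. Python 3.11.15, numpy 2.4.6, pandas 2.3.3 and scipy 1.17.1 were used.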

Additional observations from a re-analysis of the deposited data

How the results depend on the processing

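No paired analysis was possible because each genotype had 1 library, and no replicate could be left out. No value of depth or error can therefore be set on any difference. The FPKM sums differ between the libraries by 0.47 on the log2 scale. On a common FPKM sum, which moved the median of measured genes to 0.34, the log2 ratio turned to 0.25 for Timp1, 0.13 for Plau, 0.34 for Plat, 0.30 for Plaur and 0.12 for Serpine2. The median of the measured members turned to 0.30, and Timp3 became the 1 member at least 1.5-fold higher, with 4 at least 1.2-fold higher and 0 at least 1.2-fold lower. The median of all measured genes was itself more than 1.2-fold higher there, so the 1.2-fold counts do not set the members apart. That sum is carried by 12 rows above 1% of it in either library, most of them small or ribosomal RNA genes and some listed at 0 in 1 library. Without these rows (added after the data were seen), with a common upper quartile, or centred on the median gene, all 9 members kept their sign, and the count at least 1.2-fold lower went from 2 to 1. The sign of Timp4, listed at 0 in knockout, could not be turned by rescaling that library. With no filter on mean FPKM that count was 4, with Timp4 at its listed 0 among them. The log2 ratio of Serpinb2 was -0.95 with a pseudocount of 0.1 FPKM. With a pseudocount of 1 FPKM all 12 ratios within a library lay within 0.1 of the value given. Summing repeated names could move no member, since none has a repeated row, and the filters on mean FPKM act only on the median and the counts.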

Other observations

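Genes next to the 9 members were compared with them, up to 3 protein-coding places away in the RefSeq order. Serpinb2 lies in a cluster of related serpins on chromosome 1. Its nearest neighbours Serpinb7 and Serpinb10 stood below 0.05 FPKM in both libraries, with Serpinb7 at 0.0319 FPKM in knockout only and Serpinb10 at 0.0433 FPKM in wild type only. Serpinb11 and Serpinb3c were listed at 0 in both, while Serpinb8 stood at 3.26 FPKM in wild type and 2.72 FPKM in knockout (-0.20). Annotated exons of Serpinb2 and Serpinb10 overlap on the same strand. Lgals3bp, which encodes a secreted glycoprotein and lies 2 places from Timp2, stood at 132 FPKM in wild type and 109 FPKM in knockout (-0.27), whereas Timp2 was at 0.02. Vcl, the vinculin gene next to Plau, was at 0.06 and Plau at -0.28. These genes were chosen after their values were seen, and the values are given as a description.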
